A study of Mus musculus with 15 samples.

Results

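The genes that lie within 2 Mb of Nr1d1 on mouse chromosome 11 were examined in punches of the suprachiasmatic nucleus (SCN), the hypothalamic clock, of mice without REV-ERB alpha and REV-ERB beta. Members were the rows of the count table whose exons lay between 96767932 and 100775377 on chromosome 11 (mm10), 2 Mb either side of Nr1d1 at chr11:98767932-98775377 on the minus strand, with a mean of at least 0.5 CPM (counts scaled to the library's total) over the 15 libraries. Nr1d1 itself, its neighbours Thra and Rara, Hcrt and the genes whose names begin with Krt, Rpl, Psmb, Cacn or Kcn were left out by name. Of 173 rows in the window, 58 were left out by name, 39 lay below 0.5 CPM, 16 of them with no count, and 76 were members, out of 24419 genes in the table. Below the level limit, Cdc6 had a mean of 0.438 CPM and Tcap 0.427 CPM, and above it Prr15l had 0.51 CPM and Tbx21 0.513 CPM. All 76 members were among the 16910 genes tested. Of these, 3 were above 0.5 CPM in 1 genotype only. 1700003D09Rik averaged 0.926 CPM over DKO libraries and 0.310 CPM over control libraries, Tbx21 0.542 CPM over DKO and 0.488 CPM over control libraries, and Prr15l 0.471 CPM over DKO and 0.544 CPM over control libraries. The window holds 49 members at lower coordinates than Nr1d1 and 27 at higher coordinates, and 27 of the 76 lay within 1 Mb.

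Nr1d1 encodes REV-ERB alpha, a haem-binding nuclear receptor that represses transcription and forms a loop of the molecular clock. It recruits corepressor complexes to chromatin, and Nr1d2 encodes its close relative REV-ERB beta on another chromosome. The question asked of these neighbours was whether genes on the stretch of chromosome that carries a targeted locus differ between the genotypes.

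REV-ERB double knockout (DKO) mice were compared with control mice, all C57BL/6 and 8 to 12 weeks old. At circadian time (CT) 4, in the subjective day, there were 3 DKO and 3 control libraries, and at CT16, in the subjective night, 4 DKO and 5 control libraries. Each library pooled 2 to 4 punches of total RNA, and since the labels do not tell which animals went into a pool, the error in each test is the variation among pools. The labels used here give neither the alleles, nor a Cre driver, nor the genotype of the chromosome around Nr1d1. A difference that goes with genotype in all libraries may therefore come with the chromosome segment or with the loss of the receptors, and these cannot be told apart. In punches, fewer cells of a type and less RNA per cell cannot be told apart either.

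Total counts ran from 32580803 to 68757624 per library. Nr1d1 messages had 226, 252 and 242 CPM in DKO libraries at CT4, against 198, 282 and 248 CPM in control libraries, and 296, 359.9, 241 and 378 CPM in DKO libraries at CT16, against 150.3, 144, 146, 144 and 135 CPM in control libraries. The groups overlapped at CT4 and did not overlap at CT16, where DKO was higher by 1.15 ± 0.12 on the log2 scale (adjusted p = 6.93e-05). Nr1d2 was higher in DKO by 1.07 at CT16 (adjusted p = 2.79e-07) and by 0.47 at CT4 (adjusted p = 0.0212). Counts summed over all exons do not check a deletion inside the gene. SCN marker genes, 14 in all, summed to 977 to 1031 CPM in DKO against 1206 to 1300 CPM in control libraries at CT4, without overlap. At CT16 they summed to 907 to 1463 CPM in DKO against 650 to 1274 CPM in control libraries. Their median log2 fold change was -0.93 at CT4, with 0 called, and 0.09 at CT16, with 2 called higher, Rgs16 and Rasl11b. Myelin genes summed to 3603 to 19010 CPM in DKO libraries and 2741 to 9228 CPM in control libraries at CT16, highest in DKO replicate 4. The 16 genes of neighbouring hypothalamic nuclei summed to 966 to 1055 CPM in DKO libraries at CT4, against 526 to 913 CPM in control libraries, without overlap, with a median log2 fold change of 0.80 and 0 of them called. Their score was highest of the control CT4 libraries in replicate 1 and highest of the DKO CT16 libraries in replicate 3. No marker gene of these lists was at 0 in any library.

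Of the 76 members, RefSeq annotates 70 as protein coding, 4 as long non-coding RNAs and 1 as a transcribed pseudogene. The symbol E130012A19Rik was not found there, so the type of that gene is not given. Levels per exon length spanned a wide range, with a lowest mean of 0.167 CPM per kb, a median of 12.7 CPM per kb and quartiles of 2.38 and 30.0 CPM per kb. Hap1, a huntingtin-associated trafficking protein of neurons that is abundant in the hypothalamus, stood highest at 429 CPM per kb, ahead of Eif1, which selects start codons, at 196 CPM per kb and the myelin enzyme gene Cnp at 164 CPM per kb. Exons of 13 members share bases with a gene on the opposite strand, and since the strand setting of the counting is not given in the sources used here, reads of such pairs cannot be told apart. Among them are Ppp1r1b and 1700003D09Rik, which share 164 bases, and Msl1 and Casc3, which share 94 and 282 bases with Gm12359.

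The sequences below are the shared exon of an overlapping pair, the promoters of called members that lie near and far from Nr1d1, and, for its motif, the promoter of Wipf2, an uncalled member nearby. The first is the coding exon of Ppp1r1b that overlaps the antisense transcript 1700003D09Rik, exon 5 of 7, at chr11:98355327-98355509 on the plus strand (GRCm38), read from the GENCODE vM21 transcript, with the 65 shared bases in capitals. The other sequences are promoters from 250 bases before to 50 after the start, from RefSeq (GRCm38.p6, plus strand), of the lower genes Lasp1 at chr11:97799315-97799614 and Msl1 at chr11:98795266-98795565 and of Wipf2 at chr11:98863348-98863647, with capitals marking CACGTG, the E-box that the clock activators CLOCK and BMAL1 bind.
Ppp1r1b exon 5: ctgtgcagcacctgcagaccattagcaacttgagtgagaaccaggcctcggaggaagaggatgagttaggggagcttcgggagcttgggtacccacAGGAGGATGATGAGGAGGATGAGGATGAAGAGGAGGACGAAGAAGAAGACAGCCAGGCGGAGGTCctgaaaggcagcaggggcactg
Lasp1 promoter: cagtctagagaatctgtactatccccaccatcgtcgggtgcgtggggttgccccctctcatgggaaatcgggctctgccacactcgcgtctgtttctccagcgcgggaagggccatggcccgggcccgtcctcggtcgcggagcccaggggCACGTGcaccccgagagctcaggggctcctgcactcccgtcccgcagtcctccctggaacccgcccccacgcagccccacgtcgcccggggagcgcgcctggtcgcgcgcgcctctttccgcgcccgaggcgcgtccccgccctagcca
Msl1 promoter: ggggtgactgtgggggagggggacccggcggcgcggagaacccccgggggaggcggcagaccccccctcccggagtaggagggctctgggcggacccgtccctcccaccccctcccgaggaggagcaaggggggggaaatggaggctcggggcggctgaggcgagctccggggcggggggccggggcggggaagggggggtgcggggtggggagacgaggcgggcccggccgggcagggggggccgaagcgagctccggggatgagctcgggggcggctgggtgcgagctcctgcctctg
Wipf2 promoter: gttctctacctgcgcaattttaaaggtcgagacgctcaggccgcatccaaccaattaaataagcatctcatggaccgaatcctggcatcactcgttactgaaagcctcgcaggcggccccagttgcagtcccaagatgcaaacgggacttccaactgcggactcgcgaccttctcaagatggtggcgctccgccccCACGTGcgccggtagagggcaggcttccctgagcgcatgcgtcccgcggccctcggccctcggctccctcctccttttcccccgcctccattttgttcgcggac
RefSeq promoters were matched for 49 of the 76 members, 64 promoters in all. CACGTG, which reads the same on both strands, was in 7 of the 64, a share of 10.9%, against 7.15% of all 32851 promoters in the table. The 7 promoters belong to Lasp1, Wipf2, Mien1, Pcgf2, Sp2, Tbkbp1 and 4933428G20Rik. AGGTCA, the core of nuclear receptor sites, searched on both strands, was in 8 of the 64 (12.5%), against 16.3% of all promoters. The longer ROR/REV-ERB response element was in 0 of the 64 and in 0.384% of all promoters. The motifs are matches of letters in these windows only.

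The first question was how many of the neighbours differed between DKO and control at each time. With the edgeR quasi-likelihood test and a Benjamini-Hochberg adjusted p below 0.05 over all genes, 10 of 76 members were called at CT16, a share of 13.2%, where 4.66% of all genes were called. Of these, 4 were higher in DKO (2.83% of all genes) and 6 lower (1.83% of all genes). The higher genes were Gpr179, E130012A19Rik, Ppp1r1b and 1700003D09Rik, and the lower were Lasp1, Psmd3, Med24, Msl1, Casc3 and Hap1. At CT4, 2 of 76 members were called (1.28% of all genes), E130012A19Rik higher (0.574% of all genes) and Mllt6 lower (0.71% of all genes). An unadjusted p below 0.05 was found for 10 members (13.2%), against 14.8% of all genes. Averaged over both times, 8 of 76 were called, 10.5% of members against 4.65% of all genes. Of those, E130012A19Rik, Ppp1r1b and 1700003D09Rik were higher (2.47% of all genes) and Mllt6, Lasp1, Med24, Msl1 and Casc3 lower (2.18% of all genes).

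1700003D09Rik is a member only through its DKO libraries and shares bases with Ppp1r1b, so it had to be higher in DKO to enter the counts. Without it, 9 of 75 members were called at CT16 (12.0%), 3 higher and 6 lower, and 7 of 75 on average (9.33%), 2 higher and 5 lower, while the CT4 count stayed at 2.

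The remainder of chromosome 11, and the neighbourhood of the other targeted gene, were read in the same fit. Among 1143 other genes of chromosome 11, 52 were called at CT16 (4.55%), 9 at CT4 (0.787%) and 50 on the average (4.37%). Among 14 genes within 2 Mb of Nr1d2, chosen by the same level limit but with no gene left out by name, 0 were called with edgeR in each of these comparisons, and 3 had an unadjusted p below 0.05 in each. DESeq2 called 1 of them, Kcnk5, at CT16 and 0 in the other comparisons. The median log2 fold change of the members was -0.03 at CT16 and -0.04 at CT4, against 0.00 at each time over all genes tested. The count at CT16 fell to 5 without control CT16 replicate 3 or without DKO CT16 replicate 2, and rose to 14 without DKO CT16 replicate 1. Calls over all genes moved the same way, below the 788 of the main fit in the fits with 5 and above it in the fit with 14. The member count at CT16 was 3 without the 3 libraries that stand apart in tissue markers, where fewer genes in all were called too. These libraries are control CT4 replicate 1 and, among DKO at CT16, replicates 3 and 4, which leaves 2 DKO libraries at CT16. The CT4 count was 0 without control CT4 replicate 2 or 3 or any 1 DKO CT4 library. Each of these fits called fewer genes in all than the main fit did at CT4. With a score of 7 ependyma and tanycyte markers in the model, an alternative added after the data were seen, the count was 0 at CT4, 8 at CT16 and 6 on average, of which 5 were among the 8 called without it.

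**Figure D1:**
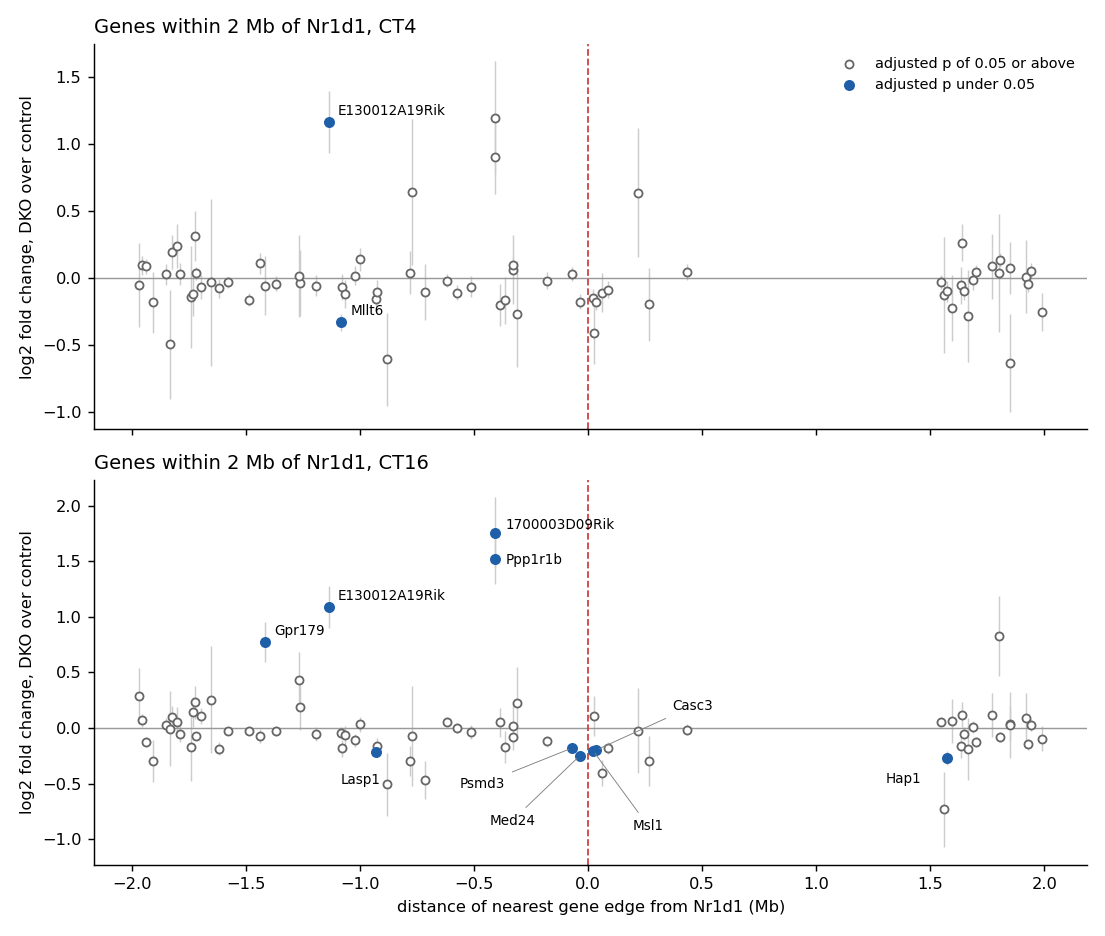
Log2 fold change of DKO over control (vertical axis, with standard error bars) of the 76 members against their position in Mb from Nr1d1 (horizontal axis), at CT4 and at CT16, with filled points for genes called at an adjusted p below 0.05. At CT16 the 4 called genes nearest to Nr1d1 all lie below 0, between -0.25 and -0.18.

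By distance, measured between the nearest annotated ends, the nearest band held the largest share of called members at CT16, 44.4%. Of 9 members within 0.25 Mb, 4 were called, all lower in DKO, 8 of 9 log2 fold changes were negative and their median was -0.18. Over all genes, 4.66% were called at CT16, 1.83% lower, and 49.6% of log2 fold changes were negative. From 0.25 to 0.5 Mb, 2 of 9 were called, both higher. They were Ppp1r1b and 1700003D09Rik, which share bases, and 1700003D09Rik is a member only through its DKO libraries. From 0.5 to 1 Mb 1 of 9 was called, lower, with 8 of 9 negative. From 1 to 2 Mb 3 of 49 members were called, with a median of -0.01. Beyond the window, 8 of 126 genes at 2 to 5 Mb were called, 7 of them lower, 2 of 66 at 5 to 10 Mb, and 42 of 950 beyond 10 Mb (4.42%). At CT4, 0 of 9 members within 0.25 Mb were called with edgeR, which called 217 genes in all, and 0 with DESeq2, which called 584. The median of the 9 was -0.11. Of the 9, 3 had an unadjusted p below 0.05, against 14.8% of all genes. These bands are descriptions, with no test of a trend with distance.

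The 4 lower genes nearest to Nr1d1 were Med24, Msl1, Casc3 and Psmd3. Med24, a subunit of the Mediator complex that links transcription factors to RNA polymerase II, lies at a distance of 38.5 kb. It had 106, 102, 103 and 95.5 CPM in DKO libraries at CT16, against 128, 111, 122, 124 and 119 CPM in control libraries, and 100.4, 106 and 98.6 CPM in DKO libraries at CT4, against 119.7, 113 and 112 CPM in control libraries. All DKO libraries lay below all control libraries at each time. The log2 fold change was -0.25 ± 0.05 at CT16 (adjusted p = 0.00467), -0.18 ± 0.06 at CT4 (adjusted p = 0.155) and -0.21 ± 0.04 on average (adjusted p = 0.00257). Of 24 alternatives, the CT16 call was lost only without the 3 libraries that stand apart in tissue markers, at an adjusted p of 0.0542.

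Casc3, a component of the exon junction complex that marks spliced messages, lies at 34.4 kb on the other side. It had 116, 103, 99.2 and 109.9 CPM in DKO libraries at CT16, against 126, 123, 122, 122 and 121 CPM in control libraries, and 99.3, 98.8 and 103 CPM in DKO libraries at CT4, against 106, 119.9 and 115 CPM in control libraries. Again no DKO library reached a control library at either time. The fitted log2 change, DKO over control, was -0.20 ± 0.05 at CT16 (adjusted p = 0.0248) and -0.19 ± 0.04 on average (adjusted p = 0.00757). The CT16 call was lost in 7 of 24 alternatives, with adjusted p over all of them from 0.0026 to 0.118, among them leaving out control CT16 replicate 1 or 3 or DKO CT16 replicate 2 or 3. The average call was lost with the ependyma and tanycyte score in the model, where the log2 fold change was -0.13 (adjusted p = 0.112), and held in the other alternatives.

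Msl1, the scaffold of a complex that acetylates histone H4, is the nearest called member at 20.4 kb. It had 123, 118, 118 and 124 CPM in DKO libraries at CT16, against 143, 143, 144, 139 and 127 CPM in control libraries. The groups did not overlap at CT16. At CT4 it had 119, 123 and 128 CPM in DKO libraries, against 125, 139 and 147 CPM in control libraries, and the groups overlapped. On the log2 scale DKO differed from control by -0.20 ± 0.05 at CT16 (adjusted p = 0.0279) and -0.17 ± 0.04 on average (adjusted p = 0.0166). The CT16 call was lost in 8 of 24 alternatives (adjusted p from 0.00279 to 0.0996), among them leaving out control CT16 replicate 1, 3 or 4 or DKO CT16 replicate 2 or 3. The average call was lost without control CT4 replicate 3 or DKO CT4 replicate 1, with adjusted p from 0.0561 to 0.0627, and with the ependyma and tanycyte score in the model, where the log2 fold change was -0.12 (adjusted p = 0.22). Msl1 and Casc3 share exon bases with the long non-coding RNA Gm12359, which had 1.64, 2.53, 2.70 and 1.95 CPM in DKO libraries at CT16, against 1.99, 2.31, 2.08, 1.59 and 2.28 CPM in control libraries, and was not called.

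Psmd3, a subunit of the regulatory lid of the proteasome, at 72.0 kb, was called at CT16. It had 137, 120.0, 134 and 127 CPM in DKO libraries at CT16, against 147, 144, 152, 149 and 140.1 CPM in control libraries, without overlap. At CT4 the values were 134, 143 and 133 CPM in DKO libraries and 136, 128 and 139 CPM in control libraries, which overlapped. The log2 fold change was -0.18 ± 0.05 at CT16 (adjusted p = 0.0304) and 0.03 ± 0.06 at CT4 (adjusted p = 0.863), and the difference between the times had an adjusted p of 0.197. The CT16 call was lost in 9 of 24 alternatives (adjusted p from 0.00688 to 0.124), among them leaving out control CT16 replicate 1, 3 or 4 or DKO CT16 replicate 2 or 4.

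**Figure D2:**
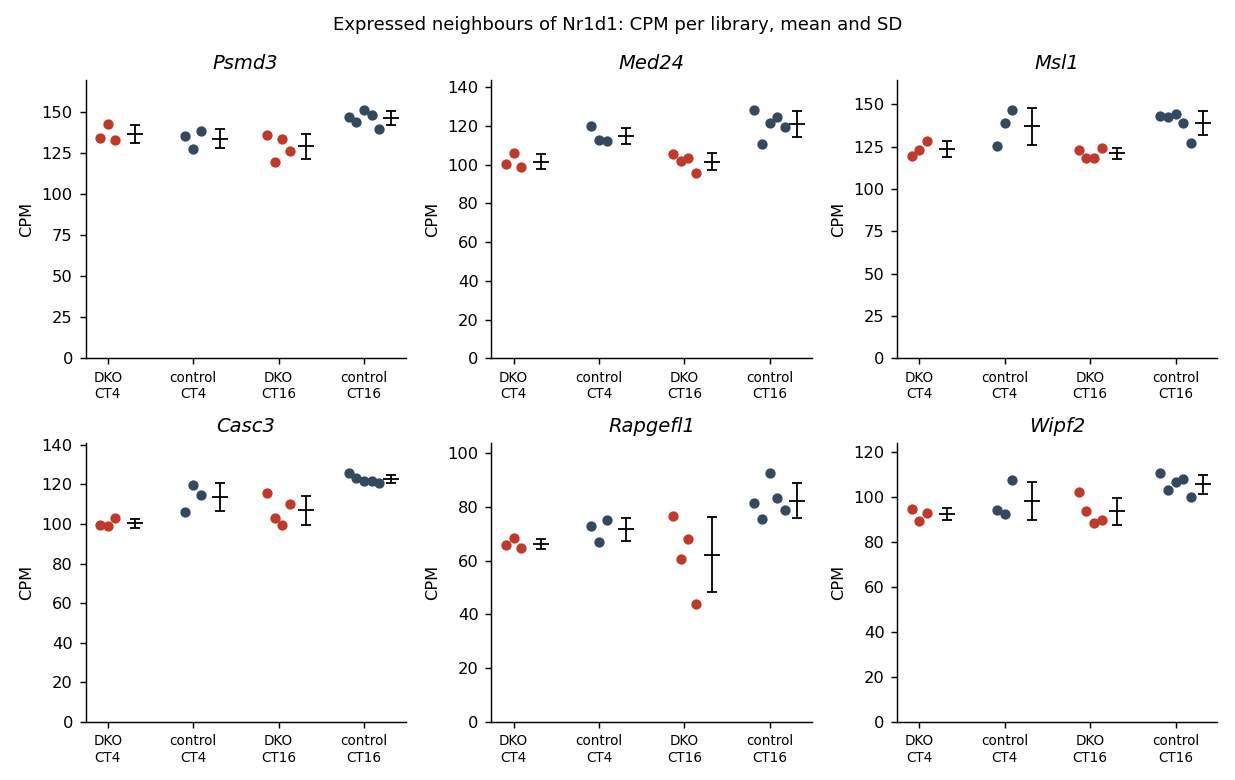
CPM of Psmd3, Med24, Msl1, Casc3, Rapgefl1 and Wipf2 in each library (points), DKO left of control at each time, with the mean and SD as bars. For Med24 and Casc3 all DKO points lie below all control points at each time, and for Msl1 and Psmd3 at CT16.

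The other members within 0.25 Mb were not called. Rapgefl1, a relative of exchange factors for the small GTPase Rap, had 76.6, 60.7, 68.0 and 44 CPM in DKO libraries at CT16, against 81.4, 75.7, 92.7, 83.5 and 78.9 CPM in control libraries. DKO CT16 replicate 4, the library highest in myelin genes, was the lowest, and the groups overlapped slightly. The fitted log2 change, DKO over control, was -0.40 ± 0.12 (adjusted p = 0.0692). Wipf2, which binds WASP proteins that drive actin assembly, had -0.18 ± 0.05 at CT16 (adjusted p = 0.0748). Ormdl3, a regulator of sphingolipid synthesis in the endoplasmic reticulum, had -0.12 ± 0.05 at CT16 (adjusted p = 0.208). Top2a, a topoisomerase of dividing cells, was near the level limit and ran from 0.476 to 1.68 CPM in DKO libraries at CT16, against 0.571 to 1.42 CPM in control libraries. With myelin and neighbouring-nuclei scores in the model, Rapgefl1 and Wipf2 passed the threshold at CT16 (adjusted p = 0.0325 and 0.0276), as they did with DESeq2.

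Farther out, Ppp1r1b had the largest fold among the called protein-coding members. It encodes DARPP-32, which inhibits protein phosphatase 1 when protein kinase A phosphorylates it and is best known in neurons that receive dopamine, and it lies 410 kb from Nr1d1. Ppp1r1b had 24.4, 26.3, 32.8 and 43.8 CPM in DKO libraries at CT16, against 9.77, 15, 10.6, 8.03 and 11.7 CPM in control libraries, and 25.8, 28.8 and 30.8 CPM in DKO libraries at CT4, against 19.9, 10.1 and 15.8 CPM in control libraries. Every DKO library lay above every control library at each time. On the log2 scale DKO differed from control by 1.52 ± 0.23 at CT16, a 2.88-fold difference (adjusted p = 0.00159), 0.90 ± 0.28 at CT4 (adjusted p = 0.147) and 1.21 ± 0.18 on average (adjusted p = 0.00164). The CT16 and average calls held in all alternatives run, with adjusted p up to 0.0384 and 0.0304.

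1700003D09Rik, a long non-coding RNA antisense to Ppp1r1b with an exon inside the coding exon printed above, was higher in DKO as well. It had 0.870, 1.18, 1.29 and 1.19 CPM in DKO libraries at CT16, against 0.186, 0.423, 0.501, 0.163 and 0.373 CPM in control libraries, and 0.533, 0.713 and 0.715 CPM in DKO libraries at CT4, against 0.353, 0.308 and 0.174 CPM in control libraries. The groups did not overlap at either time. The log2 fold change was 1.76 ± 0.32 at CT16, 3.38-fold (adjusted p = 0.00377), and 1.48 ± 0.26 on average (adjusted p = 0.00342). Its low counts share bases with a gene at more than 10 CPM, so the direction of its own transcript is uncertain. The CT16 call was lost only without the 3 libraries that stand apart, at an adjusted p of 0.0548, over a range that otherwise stayed below 0.05.

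Cells that express Ppp1r1b are also found outside the SCN, so the lists of those cells are given beside it. The 8 striatal markers, a list added after values were seen, summed to 222 to 271 CPM in DKO against 254 to 278 CPM in control libraries at CT16, and 0 were called higher and 1, Rgs9, lower. The 7 markers of ependyma and tanycytes, cells that line the third ventricle, summed to 94.3 to 146 CPM in DKO against 79.8 to 116 CPM in control libraries at CT16, and to 98.6 to 108 CPM in DKO against 86.4 to 92.4 CPM in control libraries at CT4. Of these, Tmem212 was called higher at CT16, and no marker of either list was at 0. With the score of the ependyma and tanycyte list in the model, Ppp1r1b was higher by 1.40 at CT16 (adjusted p = 0.00567). At CT4 it was higher by 0.69 with that score (adjusted p = 0.521), against 0.90 without it (adjusted p = 0.147). With myelin and neighbouring-nuclei scores Ppp1r1b was higher by 1.47 at CT16 (adjusted p = 1.77e-08) and 0.52 at CT4 (adjusted p = 0.0685). What share of the Ppp1r1b difference such cells make was not tested further.

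E130012A19Rik, a symbol without a RefSeq entry, lies 1138 kb from Nr1d1 at chr11:97627387-97629716 and was called at both times. It had 3.85, 4.12, 2.22 and 4.05 CPM in DKO libraries at CT16, against 1.61, 1.39, 1.62, 1.91 and 1.80 CPM in control libraries, and 3.50, 3.89 and 3.10 CPM in DKO libraries at CT4, against 1.58, 1.81 and 1.28 CPM in control libraries. No control library reached the lowest DKO library. The fitted log2 change, DKO over control, was 1.09 ± 0.19 at CT16 (adjusted p = 0.00209), 1.16 ± 0.23 at CT4 (adjusted p = 0.0262) and 1.13 ± 0.15 on average (adjusted p = 0.000239). The CT16 and average calls held in all alternatives run. The CT4 call was lost in 7 of 24 (adjusted p from 0.000631 to 0.127), among them leaving out any 1 of the 6 CT4 libraries, with 0.0534 to 0.127.

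**Figure D3:**
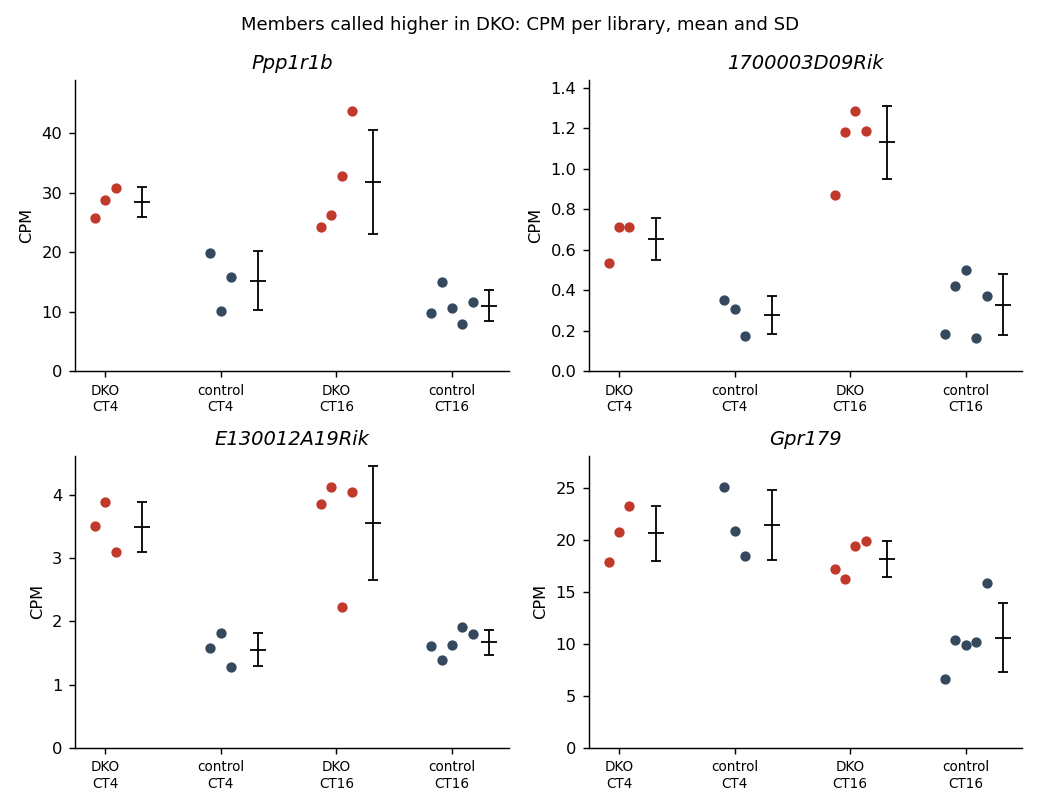
CPM of the members that were higher in DKO in each library (points), DKO left of control at each time, with the mean and SD as bars. Ppp1r1b, 1700003D09Rik and E130012A19Rik separate by genotype at CT4 and at CT16, and Gpr179 at CT16.

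Gpr179, an orphan receptor known from ON bipolar cells of the retina, 1416 kb away, was called at CT16 and in the comparison of times. It had 17.2, 16.2, 19.4 and 19.9 CPM in DKO libraries at CT16, against 6.61, 10.4, 9.91, 10.2 and 15.8 CPM in control libraries, without overlap, and 17.9, 20.7 and 23.3 CPM in DKO libraries at CT4, against 25.1, 20.8 and 18.4 CPM in control libraries, which overlapped. On the log2 scale DKO differed from control by 0.78 ± 0.18 at CT16 (adjusted p = 0.0259) and -0.06 ± 0.22 at CT4 (adjusted p = 0.941). Between times, CT16 over CT4, it was -1.02 ± 0.20 in control (adjusted p = 0.0107) and -0.18 ± 0.21 in DKO (adjusted p = 0.678), and the interaction was 0.83 ± 0.29 (adjusted p = 0.206). The genotype call was lost in 7 of 24 alternatives (adjusted p from 0.000426 to 0.23), among them leaving out control CT16 replicate 3 or 4 or DKO CT16 replicate 2, 3 or 4.

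Lasp1, an actin-binding LIM and SH3 protein at dendritic spines and focal adhesions, whose promoter is printed above, lies 929 kb away. It had 134, 133, 138 and 124 CPM in DKO libraries at CT16, against 141, 144, 159, 162 and 161 CPM in control libraries, and 142, 143 and 144 CPM in DKO libraries at CT4, against 158, 159.8 and 161 CPM in control libraries. All DKO libraries lay below all control libraries at each time. The log2 fold change was -0.21 ± 0.05 at CT16 (adjusted p = 0.0143) and -0.19 ± 0.04 on average (adjusted p = 0.00725). The average call held in all alternatives run, and the CT16 call was lost in 3 of 24.

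Mllt6, a PHD finger protein of chromatin, 1082 kb away, was the lower gene at CT4. It had 215, 215 and 206 CPM in DKO libraries at CT4, against 261, 277 and 262 CPM in control libraries, without overlap, and 239.9, 248, 211 and 237 CPM in DKO libraries at CT16, against 259, 242, 242, 244 and 219 CPM in control libraries, which overlapped. The fitted log2 change, DKO over control, was -0.33 ± 0.06 at CT4 (adjusted p = 0.0237) and -0.05 ± 0.05 at CT16 (adjusted p = 0.661), with an interaction of 0.29 ± 0.08 (adjusted p = 0.151). The CT4 call was lost without control CT4 replicate 2 or 3 or any 1 of the DKO CT4 libraries, with adjusted p from 0.0798 to 0.129, and in 6 of 24 alternatives in all, up to 0.135. The average call (adjusted p = 0.0140) was lost without control CT4 replicate 2 or DKO CT4 replicate 3, with 0.0508 to 0.0510. It was also lost with the ependyma and tanycyte score in the model, where the log2 fold change was -0.11 (adjusted p = 0.194). The genes of neighbouring nuclei and the ependyma and tanycyte markers were both higher in sum in all DKO than in all control libraries at CT4. The SCN markers were lower in sum there. The part of either non-SCN list in the CT4 differences of Mllt6 and E130012A19Rik was not tested beyond these scores. That of the SCN list was not tested. With myelin and neighbouring-nuclei scores in the model, Mllt6 was at -0.23 (adjusted p = 0.0362) and E130012A19Rik at 1.45 (adjusted p = 0.00921) at CT4.

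Hap1, the most abundant member per length, at 1572 kb, had 1601, 1315, 1574 and 1321 CPM in DKO libraries at CT16, against 1665, 1596, 1772, 1834 and 1885 CPM in control libraries. DKO replicates 2 and 4 were lowest, and DKO replicate 1 overlapped the lowest control library. On the log2 scale DKO differed from control by -0.27 ± 0.07 (adjusted p = 0.0259). The genes of neighbouring nuclei summed to 506 to 909 CPM in DKO libraries at CT16 and 846 to 1180 CPM in control libraries, with 0 of them called. With that score and the myelin score in the model, Hap1 was lower by 0.19 (adjusted p = 0.00322). The call was lost in 8 of 24 alternatives (adjusted p from 0.00295 to 0.121), among them leaving out control CT16 replicate 3, 4 or 5 or DKO CT16 replicate 2 or 4.

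**Figure D4:**
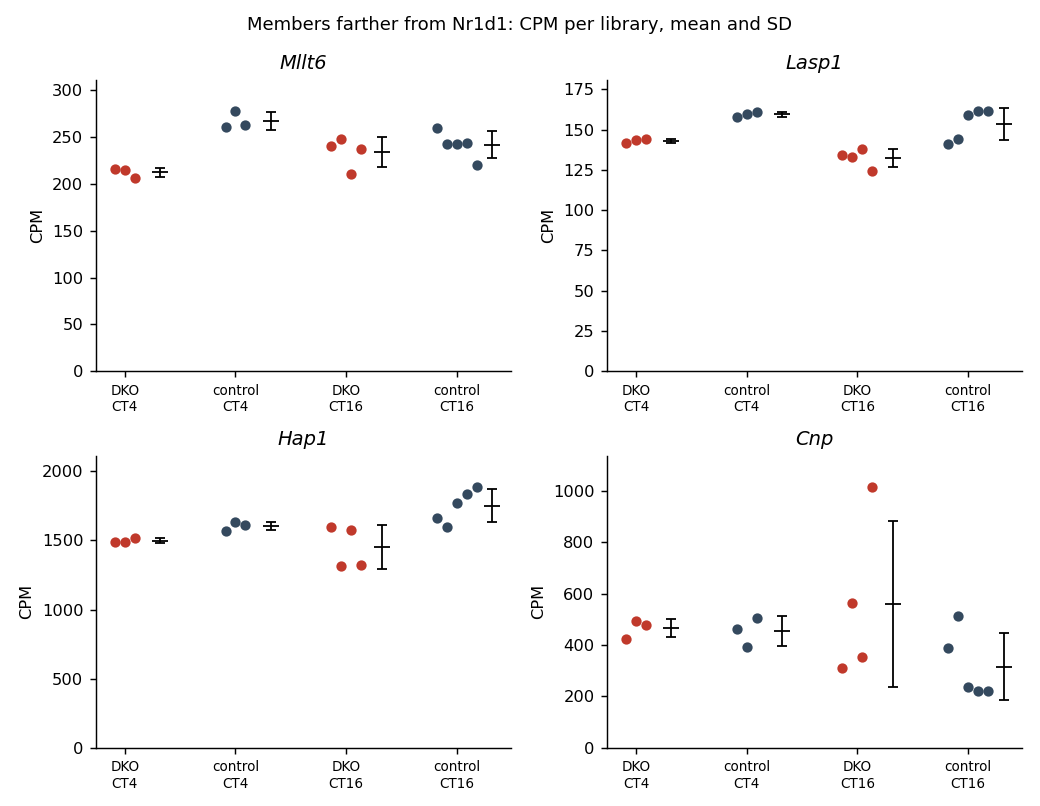
CPM of members farther from Nr1d1 that were lower in DKO, and of Cnp, in each library (points), DKO left of control at each time, with the mean and SD as bars. Lasp1 separates by genotype at each time, Mllt6 at CT4, Hap1 nearly separates at CT16, and Cnp is spread widely within the DKO group at CT16.

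Other members show how far uncalled values can lie from 0. Cnp, the myelin enzyme, had 311, 562, 353 and 1015 CPM in DKO libraries at CT16, against 389, 514, 235, 222 and 219 CPM in control libraries. Its highest value was in DKO CT16 replicate 4, the library richest in the 10 myelin genes. The log2 fold change was 0.82 ± 0.36 (adjusted p = 0.229), fell to 0.37 without that library, and was 0.33 with myelin and neighbouring-nuclei scores in the model, a score list that does not hold Cnp. With those scores the adjusted p was 3.14e-05, and over the other alternatives it reached 0.664. Acly, which makes cytosolic acetyl-CoA, had -0.13 ± 0.04 at CT16 (adjusted p = 0.105), and Tbkbp1, an adaptor of the kinase TBK1, had -0.18 ± 0.06 (adjusted p = 0.0736). Cisd3, an iron-sulfur protein of mitochondria, had -0.18 ± 0.08 (adjusted p = 0.207). Erbb2, a receptor tyrosine kinase, and Grb7, an adaptor that binds it, had 0.02 ± 0.21 and 0.23 ± 0.32 at CT16 and were not called.

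The following members were chosen after their values were seen. Npepps, a puromycin-sensitive aminopeptidase, had 198, 194 and 201 CPM in DKO libraries at CT4, against 212, 228 and 223 CPM in control libraries, without overlap, and 203, 206, 184 and 203 CPM in DKO libraries at CT16, against 201, 201, 207, 201 and 201 CPM in control libraries, which overlapped. It was not called with edgeR at CT4 (log2 fold change -0.16 ± 0.05, adjusted p = 0.121) and was called there with DESeq2. Plxdc1, a transmembrane protein with a plexin domain, had 23.6, 29.0, 37.5 and 20.1 CPM in DKO libraries at CT16, against 34.9, 31.4, 35.6, 36.9 and 30.7 CPM in control libraries (-0.30 ± 0.13 on the log2 scale, adjusted p = 0.228). Gast, the gene of the peptide hormone gastrin, had the most negative value of any member at CT16, -0.73 ± 0.34 (adjusted p = 0.243), with 0.603, 0.637, 0.318 and 1.04 CPM in DKO libraries and 0.558, 1.31, 0.812, 1.36 and 1.21 CPM in control libraries. Fbxo47, an F-box protein known from meiosis, had -0.61 ± 0.35 at CT4 (adjusted p = 0.450) and -0.51 ± 0.28 at CT16 (adjusted p = 0.333). Low levels go with wide errors in these genes. Eif1, at the other end of the level scale, had 0.06 ± 0.04 at CT16 (adjusted p = 0.472) and -0.03 ± 0.05 at CT4 (adjusted p = 0.851).

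Grouped by role, 15 members served transcription or Mediator, and 3 of these, Med24, Msl1 and Casc3, were lower at CT16 with 12 not called. Over all genes, 4.66% were called at CT16, 2.83% higher and 1.83% lower. Of 15 members of neuronal signalling, Ppp1r1b was higher, Lasp1 and Hap1 were lower and 12 were not called. Of 15 members of protein folding, transport and turnover, Psmd3 was lower and 14 were not called. None of the 7 lipid, 3 mitochondrial and 2 immune or cell cycle members was called at CT16 with edgeR. An unadjusted p below 0.05 was found for 2, 1 and 1 of them, against 19.99% of all genes. DESeq2, which called more genes in all at CT16 than edgeR, called Acly of the lipid and Tbkbp1 of the immune members. Of 19 members in no list, 3 were higher and 16 not called. The 3 were Gpr179, E130012A19Rik and 1700003D09Rik, the last a member only through its DKO libraries. At CT16 the medians were -0.03 for transcription, -0.11 for neuronal signalling, -0.08 for lipid and -0.02 for protein folding members, against 0.00 over all genes.

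The CT4 and CT16 libraries were separate, so the direction at each time was set side by side. At CT16, DKO and control libraries did not overlap for 9 of 76 members (6.97% of all genes), 4 higher (4.03% of all genes) and 5 lower (2.94% of all genes). At CT4, with fewer libraries, they did not overlap for 8 members that were higher and 9 that were lower in DKO, where 25.4% of all genes did not overlap. The log2 fold change had the same sign at both times for 49 of 76 members (64.5%), 32 lower and 17 higher. This compares with 51.1% of all genes and 51.1% of the other chromosome 11 genes. 1700003D09Rik, a member only through its DKO libraries, is among the 17. DKO and control libraries did not overlap at either time, in the same direction, for 6 of 76 members (7.89%), against 2.13% of all genes, 2.71% of the other chromosome 11 genes and 0 of 14 around Nr1d2. Of the 6, Lasp1, Med24 and Casc3 were lower (0.763% of all genes) and Ppp1r1b, 1700003D09Rik and E130012A19Rik higher (1.37% of all genes). Without 1700003D09Rik the count was 5 of 75 (6.67%), 2 higher and 3 lower. With it, the count stayed between 6 and 7 without any 1 library.

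**Figure D5:**
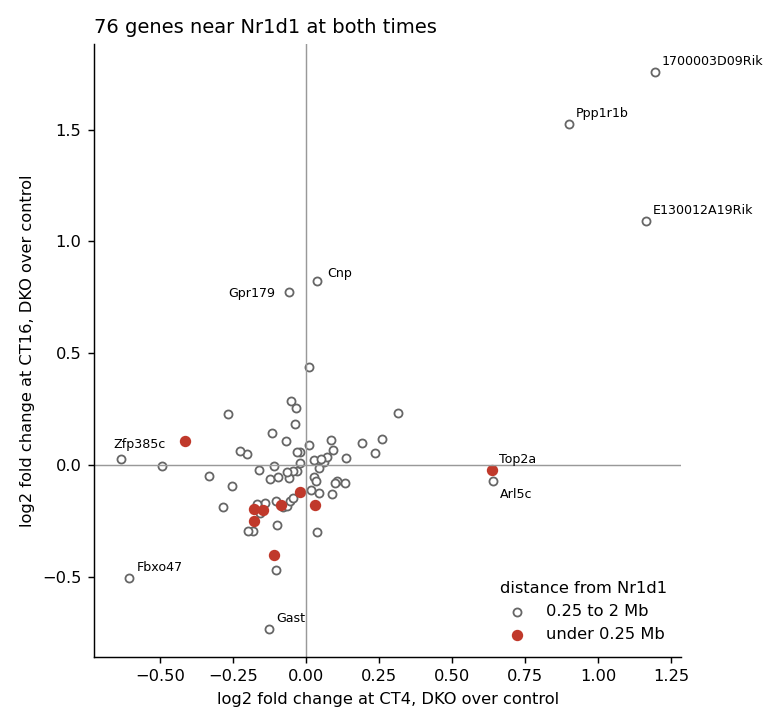
Log2 fold change of DKO over control at CT16 (vertical axis) against that at CT4 (horizontal axis) for the 76 members. Filled points lie within 0.25 Mb of Nr1d1. 1700003D09Rik, Ppp1r1b and E130012A19Rik stand alone at the upper right, while Lasp1, Med24 and Casc3 lie in the cluster just below and left of 0, and 49 of 76 points have the same sign on both axes.

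The share of members called between the times of day was near that of all genes. At CT16 against CT4 in control libraries, 3 of 76 members were called (3.95%, against 4.21% of all genes). Gpr179 was lower at CT16, as given above. Smarce1, a subunit of the BAF chromatin remodelling complex, had 63.2, 61.4, 57.9, 63.0 and 58.0 CPM at CT16, against 48.6, 52.3 and 55.0 CPM at CT4 in control libraries, a log2 fold change of 0.22 ± 0.06 (adjusted p = 0.0331) without overlap. Dnajc7, a co-chaperone with a J domain, had 174, 166, 186, 179.7 and 171 CPM at CT16, against 158, 159 and 150.4 CPM at CT4, and 0.17 ± 0.05 (adjusted p = 0.0431). In DKO libraries 1 member was called (1.32%, against 1.8% of all genes). Mien1, which lies next to Erbb2, had 24.3, 25.1, 25.1 and 25.7 CPM at CT16, against 28.6, 29.4 and 29.7 CPM at CT4 in DKO libraries, and -0.22 ± 0.06 (adjusted p = 0.0485). No member was called for the genotype by time interaction with edgeR, which called 2 genes in all (0.0118% of all genes). DESeq2 called no member there either, and 360 genes in all. With edgeR, 8 members had an unadjusted p below 0.05 (10.5%), against 15.1% of all genes. The control count was 0 without control CT4 replicate 1, and the DKO count ranged from 0 to 5, with 0 in 12 of the 15 fits that left out 1 library. Fits with 0 members called also called fewer genes in all than the main fit, and the DKO fit with 5 called the most. For the interaction 1 member was called without DKO CT16 replicate 3.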

How the data were processed

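The authors deposited a table of raw read counts per gene, whole numbers that were not normalized, for 15 libraries of total RNA from SCN punches. STAR, featureCounts and DESeq2 are named in the submitters' processing notes, with the build mm10. Their versions, the annotation and the strand setting are not given in the sources at hand. Groups were taken from the labels. The members and the role and marker lists were chosen with earlier results of these data known.

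The analysis used edgeR 4.0.16 in R 4.3.3. Low genes were removed with filterByExpr, which left 16910, TMM factors (0.989 to 1.012) were applied, and 1 model of 4 group means was fitted with the robust quasi-likelihood test and 11 residual degrees of freedom. The 6 contrasts were DKO against control at CT4, at CT16 and averaged, CT16 against CT4 in each genotype, and the genotype by time interaction. P-values were adjusted by Benjamini-Hochberg over all genes tested, and a gene was called below 0.05. Log2 fold changes are given with standard errors, and CPM used TMM-scaled library sizes. A gene's level per kb divides its CPM by its exonic length in the deposited table. The fit was tested on simulated data.

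Named genes were the members called in a genotype contrast, the 6 nearest on each side of Nr1d1, those called between times in control, the 3 highest per kb, and the member of smallest p at CT16 of each role list. Npepps, Plxdc1, Gast and Fbxo47 were named after their values were seen. Alternatives were RLE factors, DESeq2 1.42.0, no filter and a stricter one (CPM of at least 1 in 3 libraries), a fit to the compared groups alone, a block for the replicate number, tissue scores as covariates, 3 libraries excluded, and each library left out. Promoters and the exon were read from RefSeq and GENCODE tables of the same build.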

Additional observations from a re-analysis of the deposited data

Results flagged for a closer look

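The CT16 groups of the named genes were tested for a single library far from the rest, and the CT4 groups were not. Of 52 such tests 3 picked out a library, each a DKO library, and chance alone picks out about 1 in 20 groups. E130012A19Rik was at 2.22 CPM in replicate 3, against 3.85 to 4.12 CPM in the other DKO libraries of that time, and still lay above all control libraries. Smarce1, the BAF subunit, was at 58.0 CPM in replicate 3, against 60.6 to 61.1 CPM in the others. Replicate 3 is also the DKO CT16 library highest in genes of neighbouring nuclei, and the part of that in these values was not tested. Cisd3, the mitochondrial iron-sulfur protein, was at 20.9 CPM in replicate 1, against 18.9 to 19 CPM in the others.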

How the results depend on the processing

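No log2 fold change of a named gene changed sign under an alternative where it was called, and of 1843 values of named genes under alternatives 1751 kept their side of the threshold, 64 lost it and 28 gained it. The members called at CT4 numbered 2, 4 with DESeq2 (Npepps and Ppp1r1b added), 5 without the 3 libraries that stand apart in tissue markers (Npepps, Ppp1r1b and Casc3 added) and 0 with the ependyma and tanycyte score, which was added after the data were seen. On average they numbered 8, and 6 with that score, 5 of them shared. At CT16 they numbered 10, 4 with the compared groups alone and 3 without those 3 libraries (E130012A19Rik, Ppp1r1b and Plxdc1). In control between times they numbered 3, and 0 without those libraries. In DKO between times they numbered 1, 3 with DESeq2, 0 without a filter, 3 with the stricter filter, 0 with the compared groups alone, 2 without the 3 libraries and 3 with the ependyma score. For the interaction the members called numbered 0, 1 with myelin and neighbouring-nuclei scores (Ppp1r1b) and 1 without the 3 libraries (Mllt6). All genes called for it numbered 2, 17 and 423 in that order. The causes were not tested. Leaving out 1 library at a time gave 0 to 2 at CT4, 5 to 14 at CT16, 7 to 11 on average, 0 to 4 in control, 0 to 5 in DKO and 0 to 1 for the interaction. Members not overlapping at both times numbered 6 to 7, a count that leaving out a library cannot lower. The number of all genes called moved as well. At CT16 it was below the 788 of the main fit in each fit with 5 members, and highest in the fit with 14. At CT4 it was below 217 in each fit with 0 members. In DKO between times it was highest in the fit with 5 members. DESeq2 called more genes in all than the main fit in each comparison. Without the 3 libraries, more genes in all were called at CT4 and in DKO, and fewer at CT16 and in control. With the compared groups alone, fewer were called at CT16 and in DKO, and more at CT4, with 2 members still. With the ependyma and tanycyte score, fewer were called at CT4 and on average, and more in DKO. These counts and ranges therefore do not show a change particular to the members. In DKO the fits without a filter and with the stricter one called about as many genes in all as the main fit.

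Deviations of same-numbered replicates were weakly correlated at most (from -0.302 to 0.193 over 13 pairs). The labels do not say whether equal numbers share animals or a batch, and these correlations cannot exclude it. With the replicate block, 2 members were called at CT4, 7 at CT16, 8 on average, 1 in control between times and 0 in DKO. In each of these comparisons the block also called fewer genes in all than the main fit did. The lower member counts therefore do not show a change particular to the members. A limit of 1 CPM kept 9 of the 10 CT16 calls, and a window of 1 Mb either side kept 7. With 3 to 5 pools a group, small differences of the kind seen near Nr1d1 lie close to the threshold, and members near 1 CPM, such as Top2a, are set by few counts.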
